A study of Homo sapiens with 6 samples.

Results

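The 9 genes described here make, break down or sense prostaglandins: PLA2G4A, PTGS1, PTGS2, PTGES, PTGES2, PTGES3, HPGD, PTGER2 and PTGER4. They were found by symbol in the platform annotation, taking each probe set (the group of oligonucleotides that reads 1 transcript) that carries a single one of these symbols. This gave 18 probe sets of 54675 on the array, and all 9 genes of the 19775 with a single-symbol probe set. The cells were 76N, normal mammary epithelial cells in culture, grown in DFCI-1 medium. In 3 cultures an Ecd siRNA had been transfected, and in the other 3 a control siRNA, with 1 array of total RNA from each culture. ECD encodes a human protein related to ecdysoneless of Drosophila. The labels call the cultures of a group biological replicates, but siRNA sequences, doses and times are not given in the sources used here. No cutoff on values enters the rule. The genes were nevertheless chosen on a theme seen in this same comparison, with the higher PTGS2 signals known. The values of the 9 genes are therefore given as a description. Their calls in a fit over all genes are printed, but nothing is concluded from them.

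Prostaglandins are local lipid signals made from arachidonic acid. A phospholipase A2 frees the acid from membranes, a cyclooxygenase (COX-1 from PTGS1 or COX-2 from PTGS2) turns it into the unstable prostaglandin H2, and a terminal synthase turns that into prostaglandin E2. In many epithelia COX-1 is made steadily, while COX-2 is induced by growth factors, cytokines and stress, and its mRNA is short-lived. Prostaglandin E2 acts through G protein-coupled receptors, of which EP2 (PTGER2) and EP4 (PTGER4) raise cyclic AMP, and 15-hydroxyprostaglandin dehydrogenase (HPGD) inactivates it. COX-2 is well studied in breast cancer, where it is often raised.

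The stretches before the transcription starts of the COX-2 gene, of the inducible synthase gene PTGES and of the COX-1 gene are shown because the 2 cyclooxygenase genes had unlike values and PTGES is the synthase most often described as induced together with COX-2. They are the 250 bases before each start in RefSeq (GRCh38.p14), 5′ to 3′ on the gene's own strand. PTGS2 lies at chr1:186680424-186680673 on the minus strand and PTGES at chr9:129753043-129753292 on the minus strand. RefSeq lists 2 starts for PTGS1, at chr9:122370283-122370532 and chr9:122375052-122375301, both on the plus strand. Capitals mark matches, on either strand, to 5 short motifs.
PTGS2: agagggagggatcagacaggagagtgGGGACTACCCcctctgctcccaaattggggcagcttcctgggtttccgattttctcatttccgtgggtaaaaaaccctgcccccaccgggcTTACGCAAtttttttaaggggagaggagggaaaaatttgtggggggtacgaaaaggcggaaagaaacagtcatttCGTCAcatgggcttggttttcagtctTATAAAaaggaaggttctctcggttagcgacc
PTGES: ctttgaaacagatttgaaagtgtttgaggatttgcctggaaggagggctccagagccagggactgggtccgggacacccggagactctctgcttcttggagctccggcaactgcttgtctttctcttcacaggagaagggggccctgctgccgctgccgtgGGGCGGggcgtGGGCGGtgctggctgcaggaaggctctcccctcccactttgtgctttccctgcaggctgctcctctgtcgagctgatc
PTGS1 first start: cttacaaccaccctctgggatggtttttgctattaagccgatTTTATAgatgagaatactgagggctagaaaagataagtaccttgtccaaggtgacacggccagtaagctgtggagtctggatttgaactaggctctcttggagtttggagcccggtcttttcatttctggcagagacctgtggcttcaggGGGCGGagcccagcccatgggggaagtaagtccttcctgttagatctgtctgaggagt
PTGS1 second start: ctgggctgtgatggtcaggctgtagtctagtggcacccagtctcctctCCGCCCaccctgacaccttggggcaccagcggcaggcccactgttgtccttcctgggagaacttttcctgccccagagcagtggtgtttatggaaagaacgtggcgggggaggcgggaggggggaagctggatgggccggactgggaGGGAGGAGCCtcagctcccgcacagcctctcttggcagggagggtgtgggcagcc
The motifs searched were TATAAA (the TATA box), CGTCA (the core of the cyclic AMP response element, CRE), TTNNGCAA (C/EBP-like), GGGA and CC with any 4 bases between them (NF-kB-like) and GGGCGG (the GC box bound by SP1). None of the marked matches overlap each other. PTGS2 held a match to 4 of them: the NF-kB-like letters 224 to 215 bases before the start, the C/EBP-like letters at 133 to 126, the CRE core at 58 to 54 and the TATA box at 32 to 27. It held no GC box match in these letters. PTGES held GC boxes at 89 to 84 and 78 to 73 bases before its start and no other match. The first start of PTGS1 held a GC box at 58 to 53 and TATA letters in reverse at 208 to 203, and the second start held an NF-kB-like match at 55 to 46 and a GC box in reverse at 202 to 197. Among all 35116 windows of this length in the table, 10.7% held the TATA letters, 21.2% the CRE core, 9.05% the C/EBP-like letters, 22.6% the NF-kB-like letters and 42.6% the GC box. All 9 genes were in the table, some with several starts. With a match at any start counted, 2 held the TATA letters (PTGS1 and PTGS2), 4 the CRE core, 1 the C/EBP-like letters (PTGS2), 5 the NF-kB-like letters and 7 a GC box, counts per gene that do not compare with the shares per window. A match of letters is a description of these windows and not a binding site.

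The siRNA target was lower where its siRNA had been given: ECD had signals of 588.9, 599.8 and 542.5 with Ecd siRNA, against 1076.6, 1011.4 and 1007.2 with control siRNA. Array medians lay between 128.7 and 147.6, and log2 signals correlated across genes at 0.977 to 0.981 for arrays of the same group and at 0.952 to 0.961 otherwise. Each of the 6 epithelial markers with a probe set here (CDH1, EPCAM, ITGB4, KRT5, KRT14 and SFN) had a signal of at least 1794.8 on every array. Of markers of other cells with a probe set, 6 of 10 fibroblast genes and 2 of 7 macrophage genes lay above the filter. So did 4 of 6 mast cell and platelet genes and 2 of 5 endothelial genes. VIM, in the fibroblast list, was bright, at 14763.4 to 17207.7, and the others above the filter reached at most 1037.2 (PPBP). None of the markers of other cells was at 0 on any array, and the lowest single signal was 10.2, in the fibroblast list. The deposited values carry no detection calls, so a dim signal cannot be told from background.

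COX-2 and COX-1 transcripts had unlike values in the 2 groups. PTGS2 signals were 4044.3, 4802.5 and 3938.3 with Ecd siRNA, against 1795.3, 1680.6 and 1958.2 with control siRNA, in probe set 204748_at. Every Ecd siRNA array lay above every control array. The means were 4262 ± 471.3 and 1811 ± 139.5 (SD, n = 3 each), with a log2 change of 1.22 (SE 0.09), or 2.34-fold. Log2 changes here are differences of mean log2(signal + 16), Ecd siRNA minus control siRNA, a scale that understates changes of dim transcripts. The other PTGS2 probe set, 1554997_a_at, read 2481.7, 2415.6 and 2313.9 with Ecd siRNA, against 809.4, 923.7 and 1056.0 with control siRNA. It gave a log2 change of 1.36 (SE 0.10), so both probe sets put the difference between 2.34-fold and 2.57-fold. Of all 14603 genes tested, 2.1% had a larger absolute change than PTGS2, which ranked 91 from the highest rise. In RNA from whole cultures, a change in the number of cells making a transcript and a change in transcript per cell cannot be told apart.

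PTGS1 was read by 4 probe sets that did not point one way. The brightest, 215813_s_at, had signals of 428.0, 450.2 and 429.9 with Ecd siRNA, against 506.0, 594.8 and 442.0 with control siRNA. These ranges overlap, at a log2 change of -0.22 (SE 0.13), or -0.11 without control replicate 2. Probe set 205128_x_at, also of a kind that can bind more than 1 transcript, read 382.5, 420.8 and 340.0 with Ecd siRNA, against 460.2, 467.2 and 432.3 with control siRNA, without overlap. The remaining 2, 238669_at and 205127_at, were at 0.10 and 0.07 with SEs of 0.18 and 0.31, and their groups overlapped. The direction of PTGS1 therefore changes with the probe set, whereas that of PTGS2 did not. The plot of all 18 probe sets by array shows the 2 cyclooxygenase genes beside the rest.

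**Figure D1:**
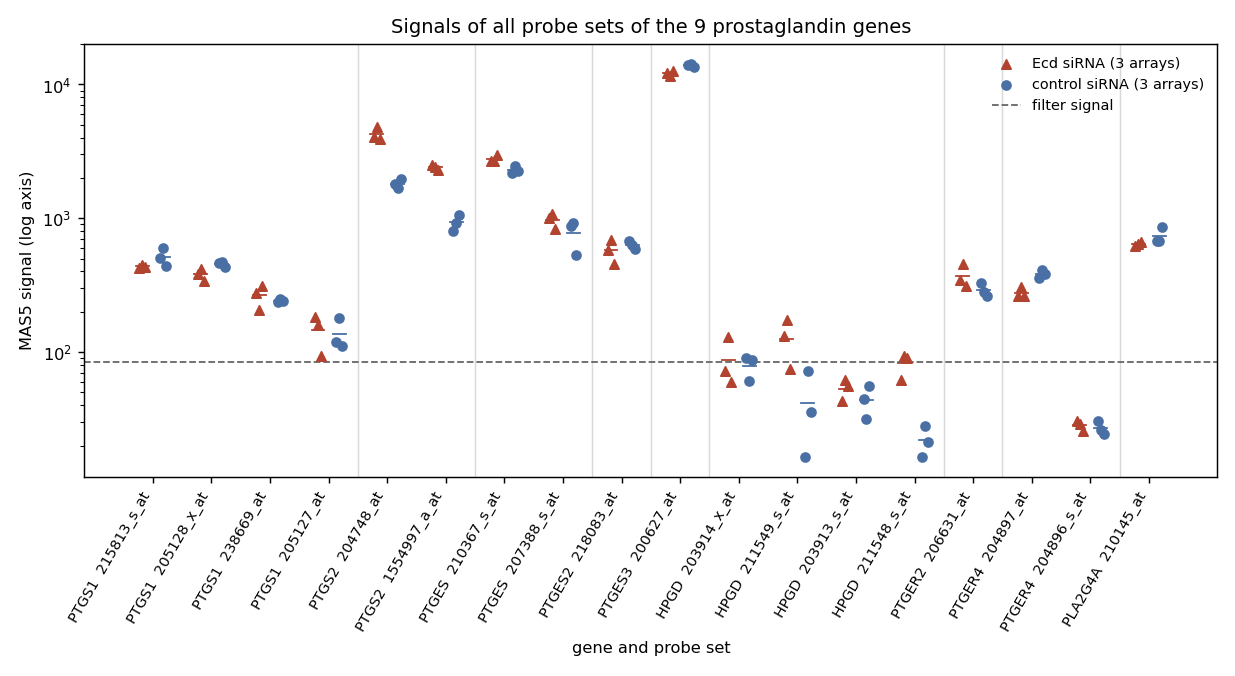
MAS5 signal on a log axis for the 18 probe sets of the 9 genes, with Ecd siRNA arrays as triangles and control siRNA arrays as circles, short lines at the group means and a dashed line at the filter signal of 84.6. The groups lie farthest apart among the probe sets above the filter in the 2 of PTGS2 (means of 4262 and 2404 with Ecd siRNA, against 1811 and 929.7 with control siRNA), and the 4 of HPGD lie around or below the dashed line.

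Upstream of both cyclooxygenases, PLA2G4A encodes cytosolic phospholipase A2 alpha, the enzyme that frees arachidonic acid. It had signals of 622.0, 639.0 and 668.7 with Ecd siRNA, against 671.8, 681.6 and 860.0 with control siRNA. The groups did not overlap, but their nearest arrays, 668.7 and 671.8, were almost level, and a single control array lay apart. It was at a log2 change of -0.18 (SE 0.12), or -0.07 without control replicate 3. PLA2G4A lies next to PTGS2 on chromosome 1, with 1 annotated gene, the noncoding PACERR, and 0 protein-coding genes between them in the RefSeq table.

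The 3 terminal synthases of prostaglandin E2 differed little between the groups. PTGES encodes mPGES-1, the membrane enzyme that is induced in inflammation and works with COX-2. Its brighter probe set, 210367_s_at, had signals of 2683.1, 2667.8 and 2973.2 with Ecd siRNA, against 2169.5, 2467.5 and 2268.1 with control siRNA. All Ecd siRNA arrays were above all control arrays, with a log2 change of 0.27 and an SE of 0.08, or 1.20-fold. The dimmer PTGES probe set, 207388_s_at, read 1011.8, 1067.0 and 826.4 with Ecd siRNA, against 873.8, 915.9 and 533.0 with control siRNA, and there the groups overlapped (log2 change 0.35, SE 0.20). Both PTGES probe sets leaned upward, though by much less than PTGS2.

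PTGES3 encodes p23, an HSP90 co-chaperone also described as cytosolic prostaglandin E synthase. Its signals were 12100.9, 11614.3 and 12550.0 with Ecd siRNA, against 13935.3, 14302.5 and 13408.7 with control siRNA. The groups did not overlap, and the difference was small, at a log2 change of -0.20 with an SE of 0.06. RefSeq lists 5 pseudogenes of PTGES3, and whether their transcripts reach its probe set was not tested. PTGES2 encodes mPGES-2, a membrane protein named as a synthase of the same product. It had signals of 583.7, 689.6 and 455.7 with Ecd siRNA, against 681.5, 625.6 and 584.4 with control siRNA. The groups overlapped at a log2 change of -0.14 (SE 0.15), and without Ecd siRNA replicate 3 it was 0.01.

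HPGD, the enzyme that inactivates prostaglandin E2, was dim on every array. All 4 of its probe sets lay under the filter, so HPGD entered no count. Probe set 211548_s_at read 62.3, 94.0 and 90.5 with Ecd siRNA, against 16.3, 27.9 and 21.3 with control siRNA, and 211549_s_at read 130.9, 173.0 and 74.1 with Ecd siRNA, against 16.3, 72.2 and 35.9 with control siRNA. In both, all Ecd siRNA arrays were the higher ones, although in the second the nearest arrays, 74.1 and 72.2, were almost level. The brighter 203914_x_at read 71.7, 128.6 and 59.7 with Ecd siRNA, against 89.5, 60.8 and 86.7 with control siRNA, and 203913_s_at read 43.1, 61.4 and 55.5 with Ecd siRNA, against 44.9, 31.7 and 55.9 with control siRNA. These last 2 overlapped. The 4 probe sets of HPGD thus gave log2 changes of 1.37, 1.36, 0.07 and 0.22, with SEs from 0.29 to 0.44, and no direction is drawn for the gene.

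The receptors EP2 and EP4 couple to the same pathway, and their values are given in turn. PTGER4 (EP4) read 262.6, 303.9 and 262.5 with Ecd siRNA, against 355.7, 411.9 and 383.6 with control siRNA, in probe set 204897_at. No arrays overlapped, at a log2 change of -0.45 (SE 0.14), or -0.20 averaged over both probe sets. The other PTGER4 probe set, 204896_s_at, stayed between 24.3 and 30.7 on all 6 arrays, under the filter, and showed no separation of the groups. PTGER2 (EP2) read 344.0, 454.2 and 311.3 with Ecd siRNA, against 330.7, 281.3 and 263.0 with control siRNA. Its groups overlapped, at a log2 change of 0.32 (SE 0.17), and without Ecd siRNA replicate 2, the highest array, it was 0.16.

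**Figure D2:**
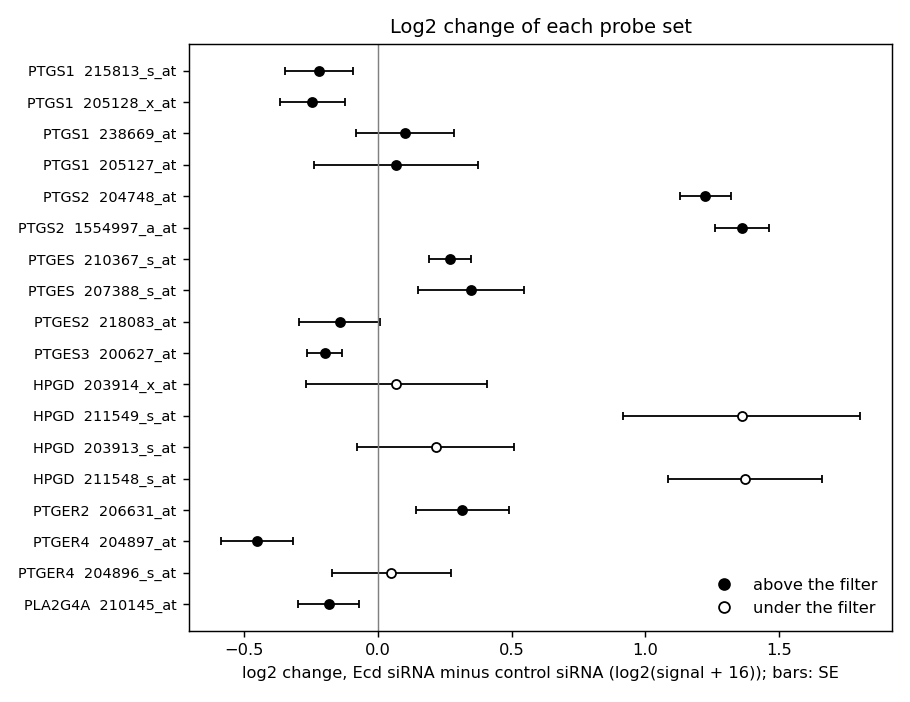
Log2 change (Ecd siRNA minus control siRNA, in log2(signal + 16)) of each of the 18 probe sets with its SE as a bar, filled for those above the filter and open for those under it, from a fit of every probe set. PTGS2 stands at 1.22 and 1.36 with narrow bars, the 2 higher HPGD probe sets have the wide bars of dim signals, and the other probe sets lie between -0.45 and 0.35.

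Of the 9 genes, 8 lay above the filter. Their log2 changes ran from -0.45 to 1.22 with a median of -0.16, beside a median of 0.01 over all 14603 genes tested. In the limma fit over all genes, 4 of the 8 passed an adjusted p of 0.05, against 21.1% of all genes tested. PTGS2 and PTGES were the 2 higher (10.1% of all genes were called higher), and PTGES3 and PTGER4 the 2 lower (11.0% of all genes were called lower). The groups did not overlap for 5 of the 8, against 36.4% of all genes. Since the genes were chosen with this comparison known, nothing is read from these counts. PTGES and PTGES3 dropped under the threshold in 7 of 16 alternative settings each, PTGER4 in 8 and PTGS2 in 0. PTGES did so without Ecd siRNA replicate 2 or 3 or control replicate 1 or 3 (0.22 to 0.30), and PTGES3 without Ecd siRNA replicate 2 or control replicate 1 or 2 (-0.20 to -0.17). PTGER4 did so without Ecd siRNA replicate 1 or 3 or any of the control replicates (-0.50 to -0.40). For PTGS2 the log2 change ran from 1.14 to 1.29 over those settings.

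By a fixed measure of likeness, the root mean square difference over the 6 arrays of log2 values centred on the control mean, the 3 genes nearest to PTGS2 were MMP9, PEX5L and PPL. MMP9, the gelatinase B gene, was at a distance of 0.06 log2 units. It read 1887.7, 2187.8 and 1708.6 with Ecd siRNA, against 742.7, 753.0 and 858.5 with control siRNA. In both PTGS2 and MMP9, Ecd siRNA replicate 2 was the highest array and control replicate 3 the highest of its group. PEX5L, a relative of the peroxisomal import receptor PEX5, read 193.3, 230.7 and 208.3 with Ecd siRNA, against 86.6, 76.9 and 81.8 with control siRNA, and averaged over probe sets it was at 0.73 instead of 1.21. PPL, the periplakin gene of epithelial junctions and the cornified envelope, read 1486.6, 1467.8 and 1430.6 with Ecd siRNA, against 572.0, 594.1 and 633.8 with control siRNA. These genes were picked for their pattern, so their values are a description.

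**Figure D3:**
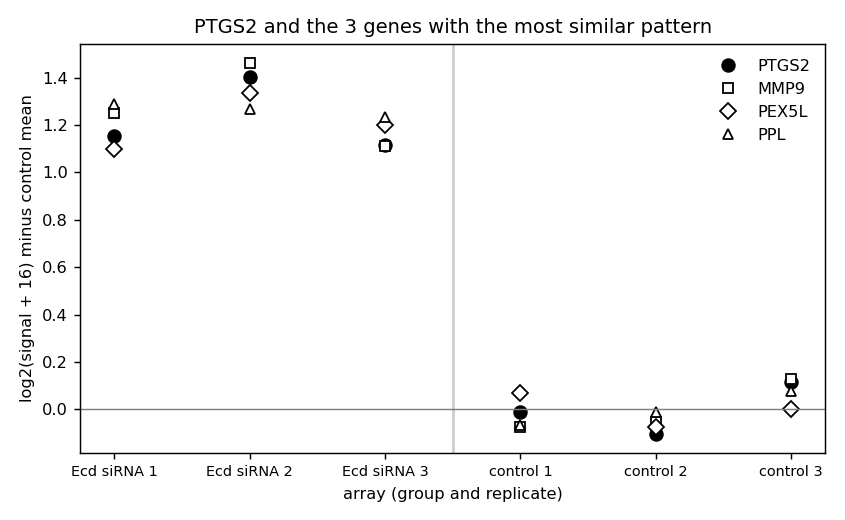
Log2(signal + 16) minus the mean of the control arrays for PTGS2 (filled) and the 3 genes of nearest pattern (open) on each of the 6 arrays. On the Ecd siRNA arrays the 4 genes lie between 1.10 and 1.46, and on the control arrays between -0.10 and 0.13.

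Around these 9 genes, 8 lists of other genes of arachidonic acid and prostaglandin E2 biology were read in the same fit. Of 93 genes with a probe set, 75 were tested, of which 12 rose, 6 fell and 57 missed the threshold. Over all genes tested, 10.1% were called higher and 11.0% lower. No such share was counted at an unadjusted p under 0.05. The lists were chosen with earlier results of these data known, so nothing is read from their counts. The median log2 change of the 75 was 0.04. The plot by list shows where the called genes lay.

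**Figure D4:**
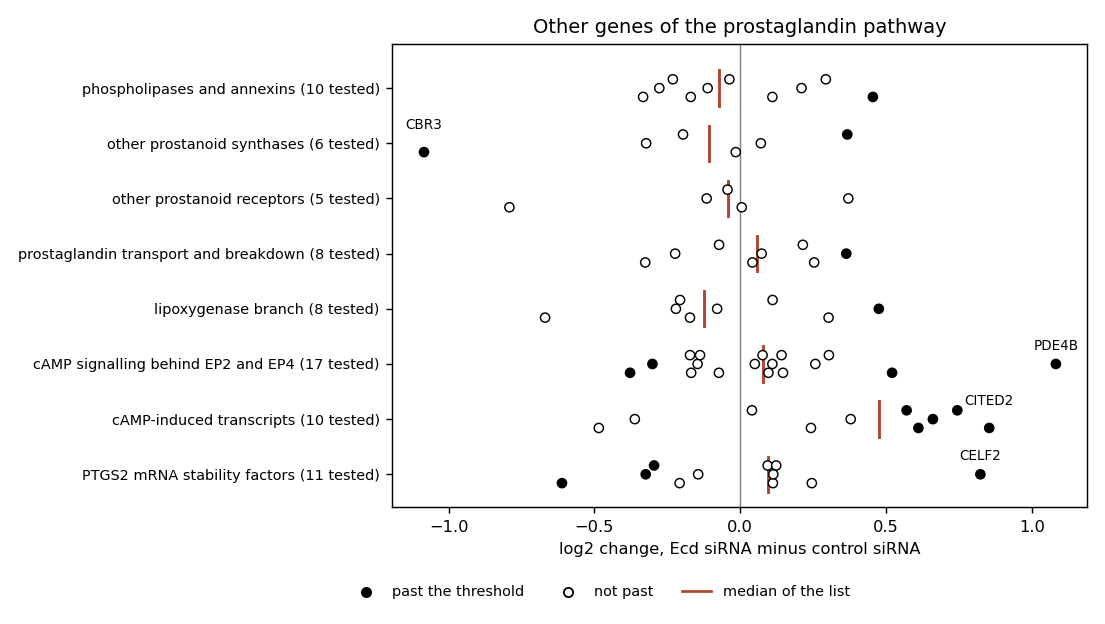
Log2 change (Ecd siRNA minus control siRNA) of each tested gene in 8 lists, filled where the limma fit over all genes passed its threshold and open where not, with a red line at the list's median. The list of cAMP-induced transcripts has its median at 0.47 and 5 filled points, all to the right of 0, and the other medians lie between -0.13 and 0.09.

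Transcripts that cyclic AMP is known to induce, in many cell types and through several other signals too, formed a list. Of 10 tested, 5 rose and 0 fell, beside 10.1% and 11.0% of all genes, with 5 left uncalled and a median of 0.47. At an unadjusted p under 0.05 the limma counts were 6 and 0, with no share over all genes beside them. The list was chosen with earlier results of these data known, so no cyclic AMP response is read from it. CITED2, a transcriptional co-regulator gene, read 2730.3, 2261.5 and 2821.7 with Ecd siRNA, against 1433.6, 1296.5 and 1563.5 with control siRNA. Its log2 change was 0.85 (SE 0.11, adjusted p = 0.000251), with all Ecd siRNA arrays above all controls. SIK1, a salt-inducible kinase gene, read 8183.7, 10121.7 and 8898.4 with Ecd siRNA, against 4873.5, 4957.8 and 6461.4 with control siRNA (log2 change 0.74, adjusted p = 0.000992). ID2, an inhibitor of helix-loop-helix factors, rose by 0.61 (adjusted p = 0.00139), and DUSP1, a MAP kinase phosphatase gene, by 0.57 (adjusted p = 0.000219). The fifth, FOS, was at 0.66 (adjusted p = 0.0212) and is named to complete the count. The orphan receptor genes NR4A1 and NR4A3, which are also classical targets, were at -0.36 and -0.48 and did not pass (adjusted p = 0.337 and 0.287). The other uncalled genes leaned upward: NR4A2, of the same family, was at 0.38, ID1 at 0.24 and CREM at 0.04 (adjusted p = 0.193, 0.0509 and 0.871). These uncalled genes were named after their values were seen. The call of SIK1 was lost when probe sets named _s or _x were avoided (0.27, adjusted p = 0.542), and SIK1 and DUSP1 both lost theirs on averaging probe sets (0.51 and 0.37, adjusted p = 0.0581 and 0.186). That of FOS was lost without Ecd siRNA replicate 1 (0.0661) or 2 (0.0844), without control replicate 1 (0.0821) and without the intensity trend (0.0883), all as adjusted p.

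Of 17 tested genes that carry the cyclic AMP signal behind EP2 and EP4, 2 were higher, 2 lower and 13 uncalled, with a median of 0.08. Over all genes tested, 10.1% were called higher and 11.0% lower, so nothing is read from these counts. PDE4B, a phosphodiesterase gene whose product degrades cyclic AMP, read 164.7, 182.5 and 136.3 with Ecd siRNA, against 98.5, 58.2 and 51.7 with control siRNA (log2 change 1.08, SE 0.29, adjusted p = 0.024). Its control mean of 69.5 lay under the filter signal of 84.6, so PDE4B was tested only through its Ecd siRNA arrays. No support is drawn from its call. Its call was lost on leaving out Ecd siRNA replicate 1 or 2 or control replicate 2 or 3, with adjusted p from 0.067 to 0.0929. Averaged over probe sets PDE4B was at 0.65 (adjusted p = 0.0669). Of the adenylyl cyclases, ADCY9 rose by 0.52 (adjusted p = 0.00904) and ADCY3 was at -0.38 (adjusted p = 0.0155). Averaging probe sets left ADCY9 at 0.30 (adjusted p = 0.255) and ADCY3 at -0.28 (adjusted p = 0.053). ADCY3 was at -0.17 where names with _s or _x were avoided (adjusted p = 0.355). Its adjusted p was 0.0525 without control replicate 3 and 0.0618 with a common median. PRKAR2A, a regulatory subunit gene of protein kinase A, was at -0.30 (adjusted p = 0.0324). That call was lost on leaving out Ecd siRNA replicate 1 or 2 or control replicate 1 or 3 (adjusted p 0.0734 to 0.114). It was also lost with a common median and without the intensity trend (adjusted p = 0.135 and 0.112).

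Proteins that bind the AU-rich tail of short-lived messages such as that of COX-2, and a kinase that acts on such proteins, formed another list. Of 11 tested, 1 was higher, 3 lower and 7 uncalled, with a median of 0.09, beside 10.1% higher and 11.0% lower over all genes. HNRNPD, whose product AUF1 is best known for promoting decay of such messages, fell. It read 4068.5, 4096.0 and 4065.4 with Ecd siRNA, against 5892.1, 6320.8 and 6509.3 with control siRNA (log2 change -0.61, SE 0.06, adjusted p = 8.74e-05). Averaged over all HNRNPD probe sets the change was -0.11 (adjusted p = 0.498), and with _s and _x probe sets avoided it was -0.70 (adjusted p = 0.000369). CELF2, whose product binds COX-2 mRNA and restrains its translation, rose by 0.82 (adjusted p = 0.00628), but by 0.46 averaged over probe sets (adjusted p = 0.0255) and 0.21 with _s and _x probe sets avoided (adjusted p = 0.704). TIAL1, which encodes the translational repressor TIAR, changed by -0.32 (adjusted p = 0.0101), and by -0.11 with _s and _x probe sets avoided (adjusted p = 0.545). The TIAL1 call was also lost on averaging probe sets (-0.23, adjusted p = 0.383) and with a common median (adjusted p = 0.0841). RBM3 was at -0.30 (adjusted p = 0.0388), a call lost on leaving out any 1 of 5 arrays (Ecd siRNA replicates 1 and 2 and all 3 control replicates, adjusted p 0.0528 to 0.135). It was at -0.16 averaged over probe sets and at -0.02 with _s and _x probe sets avoided (adjusted p = 0.415 and 0.963). The RBM3 call was also lost with a common median, without the filter and without the intensity trend (adjusted p = 0.148, 0.0589 and 0.128). ELAVL1, the gene of the stabilising protein HuR, was at -0.14 and ZFP36, the gene of the decay factor tristetraprolin, at 0.11, and neither passed (adjusted p = 0.237 and 0.741). Both were named after their values were seen.

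Among other synthases, CBR3, a carbonyl reductase gene, fell. Its relative CBR1 turns prostaglandin E2 into another prostaglandin. CBR3 read 460.7, 409.3 and 371.9 with Ecd siRNA, against 782.9, 954.3 and 951.0 with control siRNA (log2 change -1.08, SE 0.13, adjusted p = 0.000165). AKR1C3, also known as prostaglandin F synthase, rose. It read 7510.2, 6874.0 and 6352.3 with Ecd siRNA, against 5173.0, 5193.5 and 5677.1 with control siRNA (log2 change 0.37, SE 0.08, adjusted p = 0.00643, or 0.0535 without the intensity trend). Of 6 tested synthases, 1 rose and 1 fell, beside 10.1% and 11.0% of all genes. The other 4 were uncalled, and the median was -0.11.

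Of the transport and breakdown genes, 1 of 8 rose and 0 fell, with a median of 0.06. At an unadjusted p under 0.05 limma gave 1 and 1. Beside the calls in the lists of this paragraph stand 10.1% higher and 11.0% lower over all genes. The called transport gene was ABCC1, a transporter gene known for exporting leukotriene C4, at 0.36 (adjusted p = 0.00684). PTGR1, which reduces prostaglandin and leukotriene metabolites, was at -0.22 (adjusted p = 0.0651, or 0.0449 with quantile normalization). In the phospholipase and annexin list 1 of 10 rose and 0 fell, with the same counts at an unadjusted p under 0.05 in limma. PLA2G4C, the cytosolic phospholipase A2 gamma gene, was at 0.46 (adjusted p = 0.0286), but at -0.10 averaged over probe sets. It lost its call without Ecd siRNA replicate 1 or 3 or control replicate 2 or 3 (adjusted p 0.0824 to 0.0926). The call was also lost with a common median and without the intensity trend (adjusted p = 0.0537 and 0.0581). ANXA3, an annexin gene, was at -0.23 (adjusted p = 0.17). It was at -0.13 without Ecd siRNA replicate 1, at -0.14 without control replicate 3 and at -0.33 without Ecd siRNA replicate 3, where it passed (adjusted p = 0.441, 0.446 and 0.048). In the lipoxygenase branch 1 of 8 rose and 0 fell, also with the same unadjusted counts. ALOX15B, a lipoxygenase gene, was at 0.48 (adjusted p = 0.0425), and its groups overlapped. The call was lost on leaving out any Ecd siRNA replicate or control replicate 1 or 3 (adjusted p 0.06 to 0.16). A common median, no filter, averaging probe sets and no intensity trend lost it too (adjusted p = 0.0538, 0.0721, 0.116 and 0.122). GGT1, a glutamyl transferase gene of leukotriene metabolism, was at -0.67 with an adjusted p of 0.316, and at -1.01 (0.151) without control replicate 1. It read 66.7, 91.3 and 242.5 with control siRNA, against 53.0 to 76.1 with Ecd siRNA, so control replicate 3 stood apart. Without that array GGT1 was not tested. Of 5 other prostanoid receptor genes tested, 0 rose and 0 fell in limma, or 0 and 1 at an unadjusted p under 0.05. PPARG, a nuclear receptor gene, was at -0.79 (adjusted p = 0.0772) and TBXA2R, the thromboxane receptor gene, at 0.37 (adjusted p = 0.443). PPARG passed without Ecd siRNA replicate 3 (-1.035, adjusted p = 0.0337) and on averaging probe sets (0.0477). TBXA2R ran from 0.18 without Ecd siRNA replicate 1 to 0.66 without Ecd siRNA replicate 3, and was at -0.21 averaged over probe sets.

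Fibroblasts also make COX-2 and prostaglandin E2, so their markers are set beside the PTGS2 values. Of 6 tested, 2 rose and 0 fell (3 and 0 at an unadjusted p under 0.05 in limma). Over all genes tested, 10.1% were called higher and 11.0% lower, shares that stand beside every marker count given here. No such share was counted at an unadjusted p. The marker lists were chosen with earlier results of these data known. FBN1, the fibrillin 1 gene, was at 0.66 (adjusted p = 0.00541, or 0.381 with _s and _x probe sets avoided) and COL1A1 at 0.52 (adjusted p = 0.0097). COL1A1 was at 0.24 (adjusted p = 0.409) without Ecd siRNA replicate 1 and at 0.23 (adjusted p = 0.263) averaged over probe sets. The other 4 tested did not pass: VIM was at 0.14, DCN at 0.11, COL1A2 at -0.17 and THY1 at -0.32 (adjusted p = 0.106, 0.791, 0.644 and 0.304). The summed signal of the 10 markers was 18324.6 to 19722.0 with Ecd siRNA, against 16954.1 to 17684.1 with control siRNA. Most of that sum was VIM, which epithelial cells in culture also express, at 15817.4 to 17207.7 with Ecd siRNA, against 14763.4 to 15187.2 with control siRNA. The part of these markers in the PTGS2 result was not tested. The 7 macrophage markers summed to 499.1 to 719.6 with Ecd siRNA, against 556.3 to 619.5 with control siRNA, and the 5 endothelial markers to 790.8 to 897.6 with Ecd siRNA, against 900.4 to 998.5 with control siRNA. The 6 mast cell and platelet markers summed to 1582.5 to 1743.0 with Ecd siRNA, against 1096.5 to 1478.2 with control siRNA. In that last list 1 of 4 tested rose, PPBP, a chemokine gene, at 0.77 (adjusted p = 0.000403), and its part in the results was not tested either. The epithelial markers summed to 84536.7 to 94416.1 with Ecd siRNA, against 79503.4 to 87525.8 with control siRNA. Of those 6, 2 passed as higher, CDH1 at 0.25 (adjusted p = 0.00935) and ITGB4 at 0.29 (adjusted p = 0.0183), and 0 as lower. The call of CDH1 was lost with a common median, on averaging probe sets, without the intensity trend and without control replicate 1 (adjusted p = 0.121, 0.0583, 0.0825 and 0.0521). ITGB4 was at -1.12 (adjusted p = 0.0155) with _s and _x probe sets avoided, so its direction is not settled. Its call was lost without Ecd siRNA replicate 2 (0.0523) or control replicate 3 (0.0666). It was also lost with a common median (0.0548) and without the intensity trend (0.106), all as adjusted p. Of 2 macrophage and 2 endothelial markers tested, 0 passed in either direction, also at an unadjusted p under 0.05 in limma.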

How the data were processed

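Total RNA of 6 cultures of 76N cells was read on 1-colour Affymetrix arrays, 3 with Ecd siRNA and 3 with control siRNA, grouped by the sample titles. The intensity values deposited are MAS5 signals per the submitters' processing notes, 1 for each probe set on each array, linear and already scaled: the mean between percentiles 2 and 98 was 499.57 to 499.82 on every array. Such scaling hides a shift common to all transcripts. The version and scaling target are not given in the sources used here, and detection calls were not used here.

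Probe sets with 1 symbol in the platform annotation (41091 of 54675) were used, with the brightest per gene. Gene identifiers of 41037 were found in RefSeq (GRCh38.p14). A gene was tested where its mean log2(signal + 16) lay in the top 60% of probe sets, a signal of 84.6, which left 14603 genes. The groups were compared with limma 3.58.1 (lmFit, eBayes with an intensity trend, R 4.3.3), without covariates, with Benjamini-Hochberg adjustment over all genes and a threshold of 0.05. The fit was also run on simulated data. A first simulation missed the recovery limit set for it, and its noise model, limit and seed were then changed, so no result here leans on it. The number of arrays limits the precision. P-values rest on the spread among these 6 cultures alone.

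The 9 genes, the 8 pathway lists and the marker lists were chosen with earlier results of these data known. Named genes were ECD, the 9 genes, up to 4 called genes with the smallest adjusted p per pathway list (or the 2 with the smallest p where fewer than 2 were called) and the 3 genes most like PTGS2. List genes without a single-symbol probe set, such as AREG, were not analysed here. Alternatives were quantile normalization, scaling to a common median, pseudocounts of 1 and 64, leaving the filter out or keeping the top 40%, averaging probe sets, avoiding those named _s or _x, dropping the intensity trend, a block on replicate number, leaving out each array, and every probe set of the 9 genes on its own.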

Additional observations from a re-analysis of the deposited data

How the results depend on the processing

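ECD kept its direction and call in all 16 alternatives, between -0.849 and -0.779 with each array left out, as did PTGS2. Of the 9 genes, 2 were called higher and 2 lower. The number higher was 1 with a common median, with the mean of probe sets and without the intensity trend, and 1 to 2 with an array left out. The number lower was 0 with a common median, without the filter and with the mean of probe sets, 1 without the trend, and 0 to 1 with an array left out. At an unadjusted p under 0.05 in limma, those 3 settings with 0 gave 2, 2 and 1 lower. No share over all genes was counted beside these, so nothing is read from them. In the pathway lists, 12 higher became 6 with the mean of probe sets and 9 to 12 with an array left out. The 6 lower became 2 with a common median, 3 with probe sets without _s or _x preferred, 3 without control siRNA replicate 3, and 3 to 8 with an array left out. Over all genes, calls with an array left out were 1040 to 1321 higher and 1146 to 1526 lower, against 1468 and 1607 in the main fit. Scaling to a common median gave 996 higher and 1207 lower over all genes. Averaging probe sets gave 1054 and 1220, and dropping the trend 1071 and 1179. Leaving the filter out gave 1343 and 1484, and avoiding _s or _x gave 1304 and 1360. Calls over all genes were thus fewer in these settings too, so the lower counts are not particular to the 9 genes or the lists. PTGS1 turned to 0.101 with probe sets without _s or _x preferred, and to 0.068 and 0.101 in single probe sets. PTGES2 ran from -0.279 without Ecd siRNA replicate 2 to 0.012 without Ecd siRNA replicate 3. As the mean of probe sets, PLA2G4C turned to -0.1, TBXA2R to -0.209 and ITGB4 to -0.133, and ITGB4 to -1.121 without _s or _x. The cause of these shifts was not tested, beyond the change of probe set itself. The labels do not say whether same-numbered arrays were paired. Their deviations correlated at -0.01, 0.08 and 0.15 for replicates 1, 2 and 3. Replicates 2 and 3 correlated best with their own number and replicate 1 did not, so a pairing was not settled. With the replicate block, 2 of the 9 genes were higher and 2 lower, 13 and 8 pathway genes, and 1582 and 1695 of all genes, and ECD was at -0.822. Of uncalled genes named, ANXA3 and PTGR1 passed with the block (adjusted p = 0.0234 and 0.0449). With no detection calls, dim signals such as those of HPGD and of one PTGER4 probe set have no stated floor.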
